A study of Caenorhabditis elegans with 96 samples.

Results

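The genes described here are the major sperm protein genes and 4 small sperm gene families of the nematode Caenorhabditis elegans. They were chosen by name: every gene whose symbol in the WBcel235 annotation begins with msp-, ssp-, ssq-, sss- or nspd-. The rule gave 58 protein-coding genes among 46904 gene identifiers in the count files: 31 msp, 12 ssp, 4 ssq, 1 sss and 10 nspd. The separate identifiers WBGene00006038 and WBGene00006040 both carry the name ssp-9. The study sequenced total RNA of animals at the fourth larval stage (L4), in 96 libraries. N2, the laboratory reference strain, had 4 libraries (batches 3, 6, 8 and 9). CB4856, a wild strain, had 7 libraries (batches 2, 3, 4, 6, 7, 8 and 9). The other 85 libraries were 1 each from 85 recombinant inbred advanced intercross lines, made from these strains. All groups carried the same control treatment label, were hatched as synchronised larvae and were fed the Escherichia coli strain HT115. Each line had a single library, so a line's own value has no replicate.

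Major sperm protein (MSP) is the cytoskeletal protein that drives the crawling of nematode sperm, which lack actin-based movement. The same protein is released from sperm as a signal that starts oocyte maturation and the contraction of the gonadal sheath, in part through the Eph receptor VAB-1. The ssp genes encode small sperm-specific proteins related to MSP, the ssq and sss genes encode further sperm-specific protein families, and the nspd genes encode short nematode-specific peptides whose function is not known. Hermaphrodites make sperm during the fourth larval stage and then switch to oocytes, so these transcripts come from a passing window of germline development. In whole animals, fewer sperm-producing cells and less RNA per cell cannot be told apart.

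The 58 genes sat mainly in 3 dense stretches of the genome, WBcel235 coordinates throughout. Chromosome II held 12 of them between 4785898 and 5200180, all msp or nspd genes. Chromosome IV held 15 between 4994371 and 5316906, a mixture of msp, nspd, ssp and ssq genes. A further 16 lay on chromosome IV between 9689015 and 10269187, including ssq-1, sss-1, ssp-10 and nspd-7. The 31 msp genes were confined to chromosomes II (13 genes) and IV (18 genes), whereas nspd genes also lay on chromosomes I and III and ssp genes on I and V. Most msp models were a single exon of 384 bases. The coding copies of msp resemble each other closely. A read that fits several copies was counted for none of them: such multimapping reads made up 3.86% to 7.46% of the reads of a library, with medians of 5.15% in N2, 5.05% in CB4856 and 5.18% in the lines. The level of a single msp copy is therefore uncertain, and reads of an identical copy would be missing from all values below. The exons of ssq-4 also overlap another gene, T28H11.7.

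Library depth was even, at 22069702 to 24001627 reads counted in genes, so that 3 counts corresponded to 0.125 to 0.136 CPM, the count of a gene per 1000000 counts in genes of the library. Of the 58 members, 8 had a mean under 1 CPM. The 3 genes msp-32, msp-58 and msp-79 were at or near 0 in every library, with at most 0.429 CPM in any line. Compared per kilobase of exon, the highest mean levels over all libraries were those of nspd-2, at 355 CPM per kilobase, and nspd-1, at 315. The highest ssp gene was ssp-10 (145), the highest msp genes were msp-40 (135), msp-50 (131) and msp-31 (130), and ssq-2 reached 99.0 and sss-1 55.03 on the same scale.

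The first comparison set the parental strains against each other. Sperm transcripts were several times more abundant in N2 than in CB4856, across all 5 families. The 31 msp genes summed to 1211 ± 485 CPM in N2 (SD, n = 4) and to 297 ± 131 CPM in CB4856 (SD, n = 7), a 4.08-fold ratio of means. The ratio was 4.13 for the nspd genes, 3.87 for sss-1, 3.28 for the ssq genes and 2.23 for the ssp genes. Of the 52 members with enough counts to test, 47 were higher in N2 (edgeR quasi-likelihood test, Benjamini-Hochberg adjusted over all genes, threshold 0.05). These 47 were 90.4% of the tested members, beside 17.9% of all 14858 genes tested. A single member, ssp-37, was lower in N2, beside 16.0% of all genes. By family, 25 of 27 msp, 8 of 9 nspd, 9 of 11 ssp, 4 of 4 ssq and the single sss gene were higher in N2. The median log2 fold change of the tested members was 1.79, and that of all genes tested was 0.03.

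The N2 libraries were not alike. Their summed msp levels were 1078 CPM (batch 3), 1756 CPM (batch 6), 1397 CPM (batch 8) and only 614 CPM (batch 9). The CB4856 libraries of batches 2, 3 and 4 had 116, 193 and 196 CPM, and those of batches 6, 7, 8 and 9 had 329, 435, 461 and 348 CPM. No CB4856 library reached the lowest N2 library, which was that of batch 9. Where a batch held both strains, the ratio of N2 to CB4856 was 5.58 (batch 3), 5.34 (batch 6), 3.03 (batch 8) and 1.76 (batch 9). For the summed ssp level the ratio was 0.999 in batch 9, against 3.21 in batch 3. Without the N2 library of batch 9, 51 members were called higher in N2. Calls higher in N2 rose over all genes as well, from 2666 of 14858 genes tested to 3503 of 15157. Every N2 library lay above every CB4856 library for 37 of the 52 tested members, 71.2%, beside 8.55% of all genes tested.

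**Figure D1:**
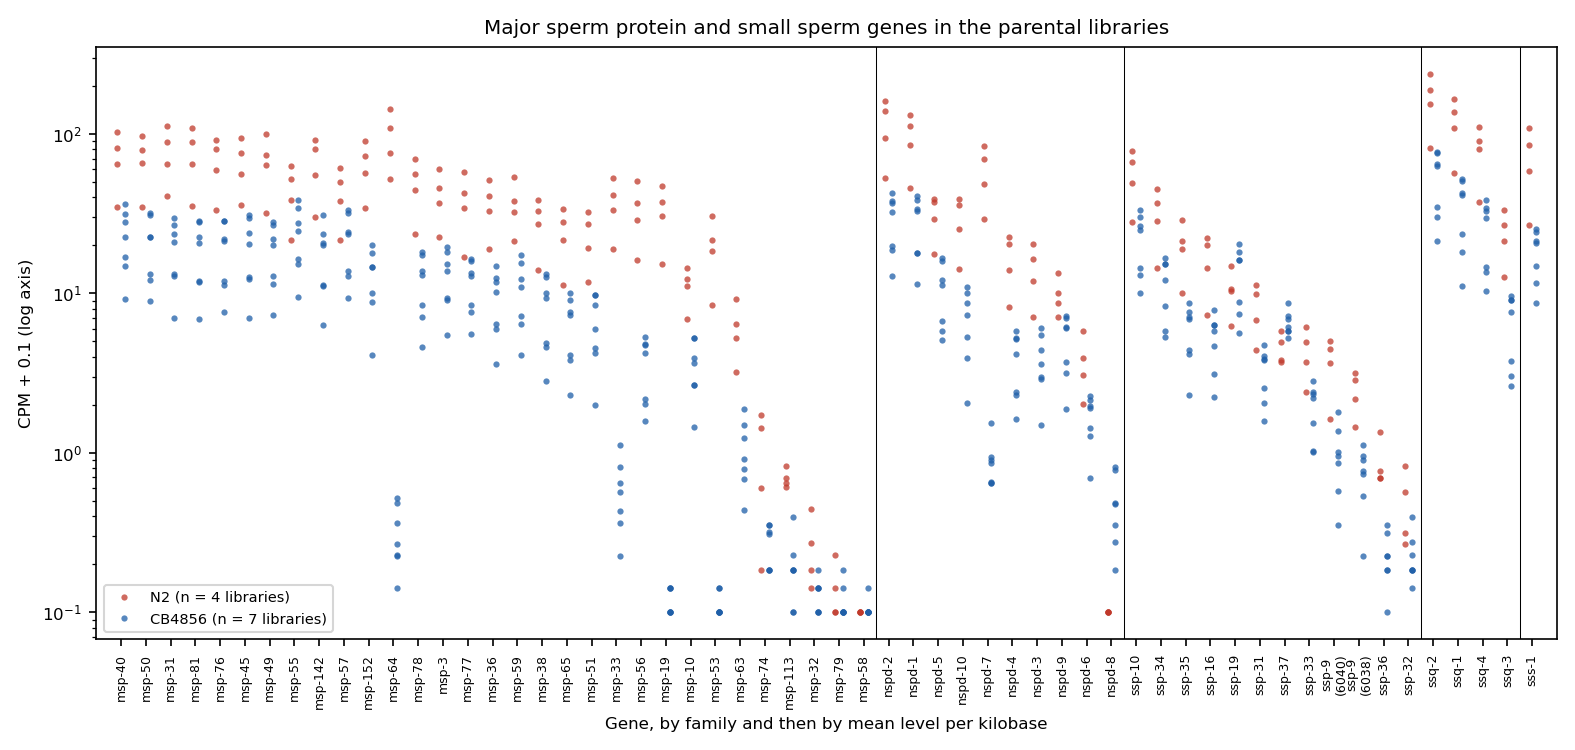
CPM plus 0.1, on a log axis, of each of the 58 genes in each of the 4 N2 (red) and 7 CB4856 (blue) libraries, with genes ordered by family and then by mean level per kilobase. The red points lie above the blue ones for most genes, farthest for msp-64, msp-53 and msp-19, while ssp-37, ssp-19 and nspd-8 have the higher mean in CB4856 and the points of ssp-37 and ssp-19 overlap; each ssp-9 copy is shown by the last digits of its identifier.

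The 5 msp genes with the highest level per kilobase, which encode the motility protein itself, had log2 fold changes of 1.60 to 1.96. The level of msp-40 was 64.3, 102, 81.1 and 34.7 CPM in N2 batches 3, 6, 8 and 9, and 9.13 to 36.1 CPM with a median of 22.5 in the 7 CB4856 libraries. Its log2 fold change was 1.60 ± 0.36 (SE; adjusted p = 0.00605, edgeR). The ranges of msp-40 overlapped, because N2 batch 9 fell below the highest CB4856 library. The level of msp-31 was 64.5, 112, 88.5 and 40.5 CPM in the same N2 libraries and 6.93 to 29.6 CPM, median 20.9, in CB4856. These ranges did not overlap, and the log2 fold change was 1.96 ± 0.37 (SE; adjusted p = 0.00267, edgeR). The values of msp-50, msp-76 and msp-81 were close to these, with log2 fold changes of 1.73, 1.79 and 1.96. In all, 38 of the 52 tested members had a log2 fold change between 1 and 2.5.

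The other families followed the same pattern. Among the nspd peptides, nspd-2 stood at 93.9, 161, 138 and 53.03 CPM in N2 and at 12.8 to 42.2 CPM, median 32.3, in CB4856. All 4 N2 libraries of nspd-2 lay above all CB4856 libraries (log2 fold change 1.92 ± 0.35 SE, adjusted p = 0.00235, edgeR). The ssq gene with the highest level, ssq-2, stood at 153, 237, 187 and 80.9 CPM in N2 and at 21.3 to 76.6 CPM, median 62.7, in CB4856, again without overlap. The log2 fold changes of ssq-1, ssq-2, ssq-3 and ssq-4 lay between 1.61 and 1.85. The level of sss-1 was 58.3, 109, 85.3 and 26.7 CPM in N2 and 8.62 to 25.4 CPM, median 20.7, in CB4856 (log2 fold change 1.91 ± 0.36 SE, adjusted p = 0.00287, edgeR). For ssp-10 the N2 values of 49.3, 78.1, 66.0 and 27.8 CPM overlapped the CB4856 range of 9.89 to 33.1 CPM. Its log2 fold change was 1.31 (adjusted p = 0.0151, edgeR), and 1.18 with batch as a replicate block (adjusted p = 0.0507), so that its call was lost. Without N2 batch 6 the ssp-10 call was also lost, at an adjusted p of 0.0655. The change of ssp-34 was 1.44, with adjusted p = 0.0117 (edgeR), and 1.19 without N2 batch 6, with adjusted p = 0.0530.

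A group of 5 members departed from this pattern by being nearly missing from the CB4856 counts. The gene msp-19 (chromosome IV, 5260589 to 5260972) had 30.5, 47.3, 37.2 and 15.2 CPM in the N2 libraries. In CB4856, 4 of 7 libraries had no msp-19 read and the others had 1 each, a sum of 3 counts against 3060 in N2. The ratio of the pooled levels was 1791, with a 95% exact counting interval of 612 to 8688. The gene msp-53 (chromosome IV, 5064678 to 5065061) had 18.3, 30.2, 21.4 and 8.32 CPM in N2 and a sum of 2 counts in CB4856, at a ratio of 1612 (interval 446 to 13324). The gene msp-64 (chromosome II, 5809947 to 5810330) was among the most abundant msp genes of N2, at 75.8, 143, 109 and 52.2 CPM. It had only 1 to 10 counts in each CB4856 library, 36 in all, and a ratio of 435 (interval 314 to 622). The values of msp-33 (chromosome II, 4892311 to 4892694) were 33.1, 52.6, 41.1 and 18.98 CPM in N2, against 3 to 24 counts per CB4856 library. Its ratio was 73.3 (interval 58.9 to 92.4). The peptide gene nspd-7 (chromosome IV, 10268975 to 10269187) had 48.6, 83.8, 69.0 and 29.2 CPM in N2 and 13 to 33 counts per CB4856 library, at a ratio of 73.7 (interval 61.9 to 88.4). These intervals cover counting error only. The edgeR adjusted p-values of the 5 genes ran from 1.97e-08 to 7.04e-07. Reads of both strains were assigned to one annotation, that of the reference genome, and sequence differences between the strains were not examined.

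A few members differed little or went the other way. The level of ssp-37 was 3.70, 4.83, 3.63 and 5.69 CPM in N2 and 5.16 to 8.58 CPM, median 6.04, in CB4856. Its log2 fold change was −0.56 ± 0.19 (SE; adjusted p = 0.0357, edgeR), and −0.54 with batch as a replicate block (adjusted p = 0.107), which no longer passed. The ssp-37 call was also lost without N2 batch 3, 6 or 8 or CB4856 batch 2, 3, 4 or 8, with adjusted p-values from 0.0543 to 0.121. The level of ssp-19 was 10.6, 14.7, 10.3 and 6.16 CPM in N2 and 5.58 to 20.3 CPM, median 16.0, in CB4856, with no call (log2 fold change −0.38 ± 0.37 SE, adjusted p = 0.455, edgeR). The neighbouring msp genes msp-55 and msp-57 on chromosome IV had log2 fold changes of 0.84 (adjusted p = 0.102, edgeR) and 0.96 (0.0634), and nspd-9 one of 0.94 (0.0517). All 3 passed without N2 batch 9, at adjusted p-values of 0.0414, 0.0271 and 0.0343. The gene nspd-8 (chromosome I, 2551375 to 2551590) had too few counts for the test. It had no read in any N2 library and 2 to 17 reads in each CB4856 library, where its mean of 0.381 CPM was at least 2.99-fold above the level of 3 counts in an N2 library. It was named after its values were seen.

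Other genes of sperm were higher in N2 as well, while oocyte genes were lower. Of 29 tested genes with a known function in sperm, such as the spe genes of sperm formation and activation, 26 were higher in N2, none was lower, and the median log2 fold change was 1.45. The sperm activation gene spe-12 was 5.52 ± 2.19 CPM in N2 (SD, n = 4) and 1.42 ± 0.53 CPM in CB4856 (SD, n = 7). The sperm toxin gene peel-1 had no read in any CB4856 library and 1.02 to 5.77 CPM in N2, at least 28.5-fold above 3 counts in a CB4856 library. Of 31 oocyte and eggshell genes, none was higher in N2 and 24 were lower, with a median of −0.43. Among them lin-41, a regulator of oocyte growth, was 414 ± 96.3 CPM in N2 and 731 ± 42.5 CPM in CB4856. Of 17 germline and meiosis genes, 8 were lower in N2 and none was higher. Among 16 tested genes of MSP reception and its targets, 3 were higher and 4 lower in N2, beside 17.9% higher and 16.0% lower among all genes, so these few calls do not mark the list. The log2 fold change of the MSP receptor gene vab-1 was −0.31, and that of the germline gap junction gene inx-14 was −0.40. Of 23 regulators of spermatogenesis and germline sex, 2 were higher and 5 lower, with a median log2 fold change of −0.07. Beside the same 17.9% and 16.0% of all genes, these few calls do not mark this list either. The argonaute gene alg-3, which acts in spermatogenesis, was higher at 1.55, and tra-2, which promotes female fate, was lower at −0.45.

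Stage markers and male markers were measured beside these values. Of 18 moulting genes, 2 were higher in N2 and none was lower, beside 17.9% higher and 16.0% lower among all genes. Their median log2 fold change was 0.63, beside 0.03 over all genes tested. Their summed level was 165 to 558 CPM in N2 and 177 to 369 CPM in CB4856. The N2 library of batch 9, with the lowest summed sperm level of its strain, had the lowest moulting sum of the parents (165 CPM) and the highest oocyte sum of N2 (24233 CPM, against 15865 to 20449 in the other N2 libraries). Yolk protein genes summed to 29638 to 34798 CPM in N2 (median 33114) and 22789 to 63912 CPM in CB4856 (median 44177). Of these 6 genes, 1, vit-3, was called higher in N2 and none lower, beside 17.9% and 16.0% of all genes. The median log2 fold change of the 6 was −0.45, in the other direction from vit-3. Markers of the male body summed to 19.8 to 24.4 CPM in N2 and 17.3 to 30.2 CPM in CB4856, and their 4 tested genes had adjusted p-values of 0.405 or more (edgeR). The part of developmental timing in the strain difference was not tested. Where component 1 of the lines, computed over 2000 variable genes that are not members, entered as a covariate, 27 of 52 members stayed called higher in N2, 51.9%, beside 8.64% of all genes. All 27 were among the 47, and the median log2 fold change was 1.14. Only the members were kept out of the 2000 genes, so other genes of sperm could enter component 1. Component 1 itself correlated with the mean level of the members over the 85 lines, with Pearson's r of 0.806 and Spearman's rho of 0.83 (permutation p of 1e-05 each, the smallest that 100000 permutations can give). Without the 2 lines farthest from the median r was 0.811, with batch means removed 0.718, and within single batches 0.438 to 0.904.

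The second comparison asked where the 85 lines stood between the parents. The summed level of all members ran from 401 to 3351 CPM over the lines, an 8.37-fold range with a median of 1410. In comparison, N2 ran from 1093 to 3145 CPM and CB4856 from 244 to 880 CPM. Of the 85 lines, 66 lay above every CB4856 library, 28 below every N2 library and 5 above every N2 library. No line lay below every CB4856 library. The lines with the highest sums of male markers were QX501, at 142 CPM, and QX505, at 69.7 CPM, whereas the median line had 21.8 CPM. Their summed sperm levels were 3237 and 2871 CPM, the third and the seventh highest of the 85. The line QX519, with 44.9 CPM of male markers, had a summed sperm level of 2384 CPM, at rank 16 from the highest. Over the 85 lines the sum of male markers correlated with the mean level of the members at an r of only 0.246.

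No member was called as departing from the midpoint of the parents on the log2 scale, in a test that called few genes of any kind. The count was 0 of 55 tested members in edgeR's test of the lines against the parental mean, beside 0.0364% of all 16500 genes. It stayed 0 with the replicate block, with other size factors, with a stricter filter and without each parental library in turn. At an unadjusted p under 0.05 there were 18 members, 32.7%, beside 7.66% of all genes. The smallest was 0.0101, for msp-64, with an adjusted p of 0.585. The lines' mean lay above the midpoint for 54 of 55 members, with a median of 0.49, beside 58.4% of all genes and a median of 0.04. The exception was ssp-19, at −0.13. The midpoint averages the log2 levels of the parents, whereas the lines enter by their mean count. Lines with a mixture of parental levels can therefore lie above it by construction, the more so the farther the parents differ. How much of the shift this makes up was not tested. In CPM, the lines' mean of msp-64 was 38.3, beside 95.1 in N2 and 0.218 in CB4856, and so below the average of the parents. Summed over all members, the lines' mean of 1573 lay above that average, beside 2186 in N2 and 590 in CB4856. For msp-55 and msp-57 the lines' means, 45.2 and 43.9, lay above those of N2, 43.7 and 42.6.

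The third comparison set the batches of the lines against each other. No line occurs in more than 1 batch, so batch and line composition cannot be told apart. The summed msp level of the lines was 404 ± 189 CPM in batch 2 (SD, n = 7), 572.8 ± 211 in batch 3 (n = 10) and 743 ± 396 in batch 4 (n = 11). It was 1012 ± 405 in batch 6 (n = 13), 1115 ± 355 in batch 7 (n = 11), 1050 ± 391.8 in batch 8 (n = 19) and 627 ± 416 in batch 9 (n = 14). CB4856 was likewise lowest in batch 2 and highest in batches 7 and 8. Of 55 members, 46 differed between batches (edgeR, adjusted p under 0.05), 83.6%, which is close to the 79.5% of all 16030 genes. Batch held a median of 38.6% of the variance of the members and 25.5% of that of all genes. With component 1 as a covariate 7 of 55 members were called, 12.7%, beside 58.0% of all genes. Among these 7 were msp-55, msp-57, msp-40 and nspd-3. Component 1 followed the members over the same lines (Pearson's r of 0.806), so a loss of their calls was partly built into this fit. The smallest p-values over batches were those of nspd-5, msp-36, msp-50, nspd-3 and msp-76. For msp-50 the mean of the lines ran, as for the sum, from batch 2 at the bottom to batch 7 at the top.

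**Figure D2:**
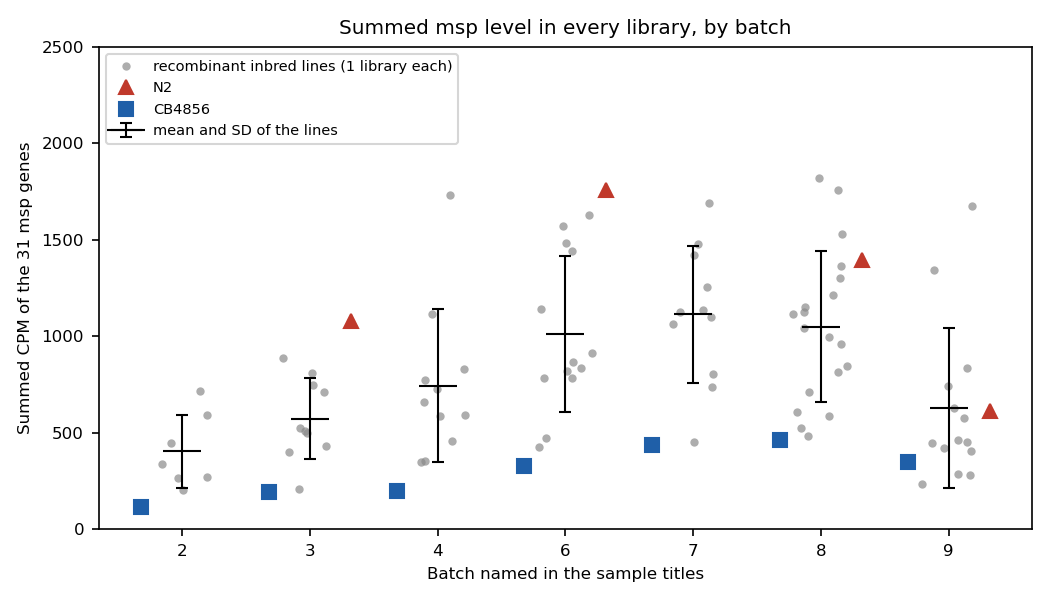
Summed CPM of the 31 msp genes in every library by batch, with lines as grey points, their mean and SD in black, N2 as red triangles and CB4856 as blue squares. The batch means of the lines run from 404 CPM in batch 2 to 1115 in batch 7, and the CB4856 squares run from 116 to 461 CPM; N2 lies at 614 CPM in batch 9 and at 1078 CPM or more in the other batches.

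For many members the lines spread little beyond the libraries of a single strain, each of which came from a different batch. The variance within the parental strains therefore includes differences between batches. The variance of log2 CPM over the lines, divided by the variance within the parental strains, had a median of 1.27 over 55 members, beside 1.59 over all genes. Without the CB4856 library of batch 2 this order was turned, at 1.71 for the members and 1.58 for all genes. The ratio was above 1 for 52 of 55 members and for 80.2% of all genes. With batch means removed from the lines only, the median was 0.816, beside 1.25 over all genes. The parental variance kept its differences between batches, so this step could lower the ratio by construction. The lowest ratios were those of nspd-10 (0.805), msp-51 (0.895) and ssq-1 (0.897). The highest were those of msp-19 (60.5), msp-53 (47.5) and nspd-7 (27.2), followed by msp-64 (25.8), all among the genes nearly missing from CB4856.

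The members varied together over the lines. The median Pearson correlation of log2 CPM over the 85 lines was 0.892 for the 1326 pairs of tested members, as a description of lines that share batches and RNA composition. Without 5 members whose counts fell into separate ranges (below), the median was 0.927 for 1081 pairs. It was then 0.931 for pairs on the same chromosome and 0.925 for pairs on different chromosomes. The genes with the highest level in each family, msp-40, ssp-10, ssq-2, sss-1 and nspd-2, gave 10 pairs, with Pearson's r of 0.945 to 0.975 and Spearman's rho of 0.942 to 0.977. All permutation p-values were 1e-05, before and after Benjamini-Hochberg adjustment over the 10 pairs, the smallest that 100000 permutations can give. Without the 2 lines farthest from the median r was 0.938 to 0.972, with batch means removed 0.913 to 0.961, and the lowest value within any single batch was 0.848. The members that followed the rest least were msp-19, msp-53, nspd-7 and ssp-37, with median correlations to other members of 0.118, 0.124, 0.225 and 0.244.

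The genes outside the families whose pattern over the 85 lines was most like the mean of the members were C34F11.2, cyn-2, nsph-3.2, F27C1.1 and msd-2, with Pearson's r of 0.966, 0.959, 0.957, 0.956 and 0.956. The next were ttbk-8.2, K06A5.2, smz-2, Y43C5B.3 and htas-1, down to an r of 0.954. All were compared among 16445 genes, and all 10 were higher in N2 (log2 fold changes from 1.53 to 2.04). Of these genes smz-2 and htas-1, the latter a sperm histone variant gene, also stood in the list of sperm genes above.

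Against this shared movement, single members can be read by their level relative to the median of the tested members of the same library. The SD of this relative level over the 85 lines had a median of 0.24 on the log2 scale and was under 0.5 for 41 of 52 members. The shared level itself had an SD of 0.79. For 20 of the 52 members the relative levels of the N2 and CB4856 libraries did not overlap. Relative levels were computed for members only, so no share over all genes stands beside this count. Besides the 5 genes nearly missing from CB4856, msp-56 and msp-152 were relatively higher in N2, by 1.30 and 0.41 on the log2 scale. Relatively higher in CB4856 by the largest differences were ssp-37 (N2 minus CB4856 −2.48), ssp-19 (−2.21), msp-55 (−1.04), msp-57 (−0.91) and nspd-9 (−0.89). Smaller differences in this direction, also without overlap, were those of nspd-6 (−0.81), ssp-33 (−0.76), ssp-31 (−0.62) and ssp-10 (−0.58). The rest were ssp-34 (−0.47), msp-40 (−0.30), msp-77 (−0.27) and ssq-2 (−0.26). These are differences of levels relative to the other members, not of CPM. A member that follows the shared level little, such as ssp-37 (median correlation 0.244), can differ here because the shared level differs between the strains.

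**Figure D3:**
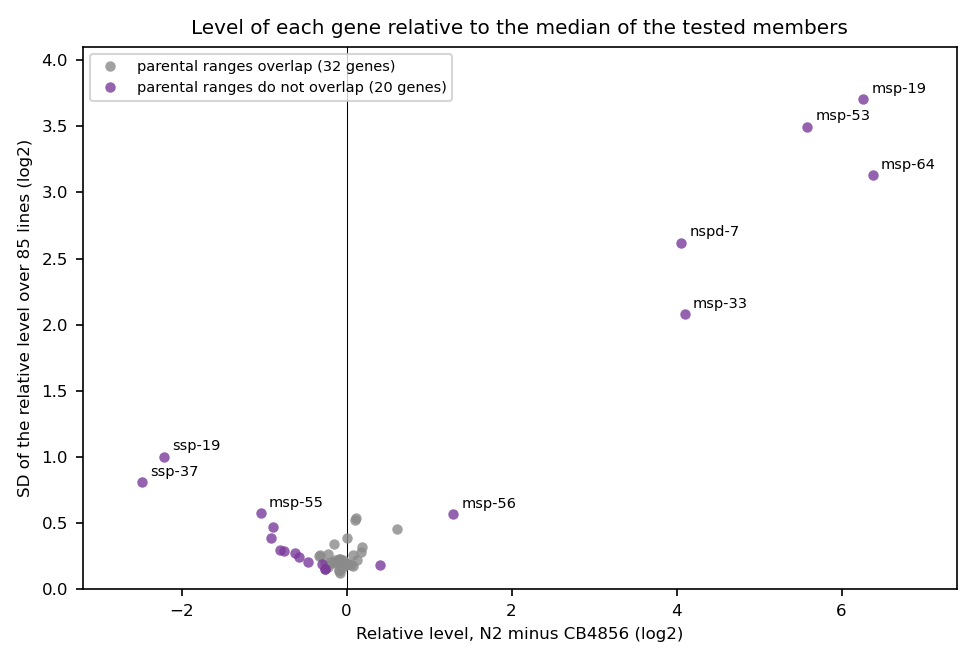
Each point is 1 of the 52 tested members: the x axis is its level relative to the member median, N2 minus CB4856 (log2), and the y axis is the SD of that relative level over the 85 lines (log2). Most points lie close to 0 on the x axis and under 0.5 on the y axis, while msp-19, msp-53, msp-64, nspd-7 and msp-33 lie far to the upper right and ssp-19 and ssp-37 to the left.

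The counts of the lines fell into separate ranges for 6 members. The rule was set after the values were seen. It asked for a gap of at least 1 on the log2 scale that left at least 8 lines on each side. The gene also needed a highest count of at least 50. Only members were put to this rule, so how many of all genes would meet it is not known. For msp-19, 49 lines had 0 to 10 counts and 36 had 165 to 1232, with nothing between. For msp-53 the same numbers of lines had 0 to 8 and 89 to 775 counts. For msp-64, 40 lines had 2 to 82 counts and 45 had up to 3783, across a gap of 2.58 on the log2 scale. For msp-33, 41 lines had 2 to 76 counts and 44 had 221 to 1402. For nspd-7, 55 lines had 8 to 41 counts and 30 had 319 to 1952. In 4 of these 5 genes all N2 libraries lay within the upper range of the lines; for nspd-7 the highest N2 library, at 1961 counts, lay just above it. The CB4856 libraries, at 0 to 33 counts in these genes, lay below the upper range throughout. For nspd-8 the order was turned: 70 lines had 0 or 1 count, beside 0 in N2, and 15 had 6 to 113, beside 2 to 17 in CB4856. The next largest gap among members with more than 10 counts was 0.415 on the log2 scale.

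**Figure D4:**
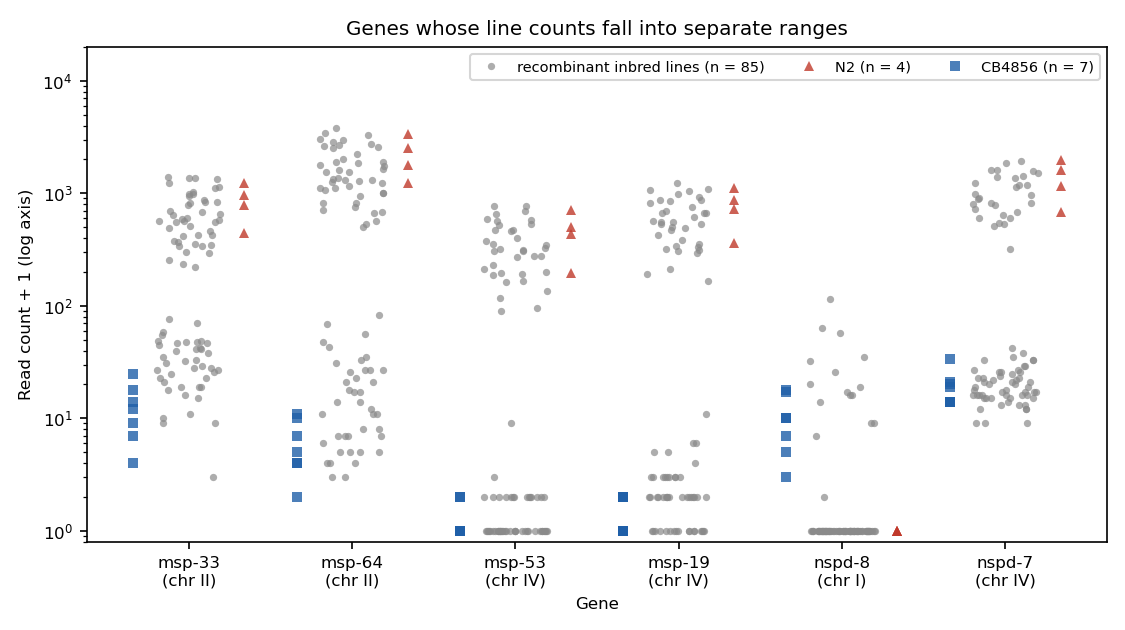
Read count plus 1, on a log axis, of the 6 genes whose line counts fall into separate ranges, with lines in grey, N2 as red triangles and CB4856 as blue squares. The upper ranges of the lines sit at the height of N2 and the lower ones near CB4856 for all but nspd-8, where N2 has no read.

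Lines in the upper range of one gene tended to be in the upper range of its neighbours. The genes msp-53 and msp-19, 196 kb apart, had the same state in 85 of 85 lines. The genes msp-33 and msp-64, 918 kb apart on chromosome II, had the same state in 80 of 85 lines. The states of msp-53 and nspd-7, 5204 kb apart on chromosome IV, were the same in 73 lines. Between chromosomes the same states were found in 40 to 50 of 85 lines for these 6 genes. On chromosome I, nspd-8 exceeded 3 counts in 15 lines, and in all 15 peel-1, 199 kb away, was at 3 counts or fewer. The reads of peel-1 exceeded 3 counts in 63 lines. These counts describe the lines, and genotypes were not used here.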

How the data were processed

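Total RNA of 96 samples was sequenced, and the authors deposited a table of read counts per gene for each sample. STAR 2.73a, FastQC, DESeq2 and the WBcel235 build are named in the submitters' processing notes, with no role given. Each deposited file holds counts for unstranded reads and for each strand. The unstranded counts were used, since the strands held nearly equal counts (ratio 0.957 to 1.04). Reads outside genes, multimapping reads and ambiguous reads (0.800% to 0.992%) stand in rows of their own and entered neither library sizes nor tests. Symbols, positions and exon lengths came from the Ensembl release 115 annotation of WBcel235, which holds 46817 of the 46904 identifiers.

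Counts were tested with edgeR 4.0.16 (R 4.3.3, filterByExpr, TMM scaling, robust quasi-likelihood test), adjusted over all genes tested. N2 and CB4856 were fitted alone, the lines against the parental midpoint in all 96 libraries, and batches in the 85 lines. Variances used log2 CPM with a prior count of 2. DESeq2 1.42.0, other size factors, other filters, a batch block, a covariate and leaving out libraries were tried as alternatives. The fits were tested on simulated data. Sample titles give the batch that N2 and CB4856 libraries share, so batch pairs them; within batches 3, 6, 8 and 9 the deviations from the strain means correlated at 0.298, 0.0819, 0.569 and 0.148. Nothing says that libraries came from separate cultures, so p-values measure the spread between these libraries. The members and gene lists were chosen with earlier results of these data known. Named members are those with the highest level per kilobase in each family, with the largest and smallest parental changes, with the smallest p over batches and with extreme variance ratios. Other members named in the text, such as nspd-8 and msp-56, were picked after their values were seen. Intervals and the 3-count floor cover counting error only. Sequences of the genes were not used here.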

Additional observations from a re-analysis of the deposited data

Results flagged for a closer look

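Among 72 groups of parental values examined, for single members and for families, 1 held a library far from the others of its strain. The CPM of nspd-7 in the CB4856 library of batch 4 was 1.43, and the next highest CB4856 library was at 0.845, in a range that began at 0.542. The gap was 0.66 of the range, above the 95% critical value of 0.568 for 7 samples. Chance gives such a gap in about 1 group of 20. All CB4856 values of nspd-7, this one included, were far below the lowest N2 value of 29.2 CPM.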

How the results depend on the processing

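The count of members higher in N2 was 47. It was 44 with batch as a replicate block, 47 with DESeq2 size factors in edgeR, 50 with DESeq2, 49 without a filter on low counts, 44 with a mean log2 CPM of at least 1, and 43 to 51 without each library in turn. It was 27 with component 1 as a covariate, where the median log2 fold change was 1.14. Elsewhere that median was 1.57 to 1.99. Over all genes, 2666 of 14858 were higher in N2 in the main fit and 1232 with the replicate block. Over all genes the number was 2734 of 23974 without a filter, and 1830 to 3503 without each library in turn. The count of members lower in N2 was 1 and fell to 0 with the replicate block and with component 1 as a covariate; it was 2 with DESeq2 and without a filter, where nspd-8 joined ssp-37, and 0 to 1 without each library in turn. The count of members differing between batches was 46 and dropped to 7 with component 1 as a covariate, and it was 42 to 47 under the other alternatives. Over all 16030 genes tested, 12736 differed in the main fit and 9300 with component 1 as a covariate. The median variance ratio of 1.27 was 0.816 with batch means removed from the lines only, and 1.24 with a prior count of 0.5. It was 1.11 to 1.71 without each parental library in turn. The value over all genes, 1.59, lay above that of the members except without CB4856 batch 2 (1.58 against 1.71). The cause of these shifts was not tested. For the log2 fold changes of named members, 25 alternative values lost the call, 10 gained it, the others stayed on the same side of the threshold and none changed direction; with the replicate block ssp-10 and ssp-37 lost their calls and no other named member did. With 1 library per line, no line's value has an error of its own, and below 3 counts a level could not be told from 0.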
